A study of Mus musculus with 9 samples.

Results

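The Hippo pathway ends in 2 coactivators, YAP and TAZ, in the TEAD proteins that carry them to DNA, and in Vestigial-like proteins that also bind TEAD. The genes of these factors were Yap1 (YAP), Wwtr1 (TAZ), Tead1, Tead2, Tead3, Tead4, Vgll2, Vgll3 and Vgll4. They were chosen by name, with earlier results of these data known, and are 9 of the 38293 genes in the table. Of these, 8 were among the 15318 genes with enough counts to be tested. Vgll2 was too low for the test and is given by its counts.

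Ventricles of mice at postnatal day 7 (P7) were compared between 2 genotypes by RNA sequencing. The 5 control libraries came from Arid1a f/f animals, in which both copies of Arid1a are floxed and no Cre is present. The 4 cKO libraries came from aMHC-Cre;Arid1a f/f littermates, in which the floxed gene is removed by a Cre recombinase under the alpha myosin heavy chain promoter, active in cardiomyocytes. Arid1a encodes part of the chromatin remodeller SWI/SNF, and the comparison asks how its loss from cardiomyocytes alters the maturing heart. Both groups carry the floxed gene, so the presence of Cre and the loss of Arid1a cannot be told apart. RNA was taken from whole ventricles, and a lower level in such a sample can mean fewer cells of a type or less RNA per cell, which cannot be told apart either.

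When the Hippo kinases are active, they phosphorylate YAP and TAZ and hold them in the cytoplasm. When the kinases are inactive, YAP and TAZ enter the nucleus, bind TEAD proteins and switch on genes for growth and for the matrix. TEAD proteins also bind the M-CAT elements of many muscle genes, and in the heart YAP is known for driving cardiomyocyte division before and shortly after birth. VGLL4 competes with YAP for TEAD, VGLL2 is a TEAD partner of skeletal muscle, and VGLL3 is a TEAD partner described in fibroblasts and muscle. Much of this control acts on the location of the proteins, which RNA levels do not measure.

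The libraries held 31011055 to 40073801 counts in genes. Arid1a stood at 128.0 to 148.1 CPM (counts per 1e6 counts of the scaled library) in controls and 100.3 to 112.9 CPM in cKO libraries, with no overlap between groups (edgeR: log2 fold change -0.39, SE 0.06, adjusted p = 0.00132). Cardiomyocyte markers were present in all libraries, at a summed level of 44830 to 58110 CPM. The libraries also fall into sets that cut across the genotypes. The ribosomal protein gene copy Rps3a3 was at 0.345 to 0.522 CPM in control replicates 1 and 2 and cKO replicates 1 to 3, and at 100.3 to 112 CPM in control replicates 3 to 5 and cKO replicate 4. These are called the Rps3a3-low and Rps3a3-high libraries, and what separates them is not given in the labels.

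The sequences before the start sites of these genes are shown first, because TEAD proteins bind the M-CAT element, CATTCC, or GGAATG when read on the other strand. RefSeq promoters (assembly GRCm38.p6) were matched for 7 of the 9 genes. Tead1 and Tead4 were not matched. Within the 250 bases before a RefSeq start site, 5 of the 7 genes held at least 1 such element: Yap1, Wwtr1, Tead3, Vgll3 and Vgll4. Of all tested genes with a promoter, 13.0% held it. By promoter, 7 of the 10 windows of these genes held it, compared with 11% of 14434 windows of tested genes and 12.6% of all 32851. The member windows had a GC content of 57.2% to 76.8%, compared with a median of 59.6% over windows of tested genes. The match is a description of letters and not of binding. The windows of 5 genes are printed in the direction of transcription, 4 that hold the element and that of Vgll2, which does not, with the element in capitals. They lie at chr9:8004597-8004846 (Yap1, minus strand), chr3:57575911-57576160 (Wwtr1, minus strand), chr16:65814939-65815188 (Vgll3, plus strand), chr6:114969204-114969453 (Vgll4, minus strand) and chr10:52022252-52022501 (Vgll2, plus strand). The Vgll4 window lies inside the annotated span of the gene, before an internal start site, and the other 4 lie outside the span of their gene.
Yap1: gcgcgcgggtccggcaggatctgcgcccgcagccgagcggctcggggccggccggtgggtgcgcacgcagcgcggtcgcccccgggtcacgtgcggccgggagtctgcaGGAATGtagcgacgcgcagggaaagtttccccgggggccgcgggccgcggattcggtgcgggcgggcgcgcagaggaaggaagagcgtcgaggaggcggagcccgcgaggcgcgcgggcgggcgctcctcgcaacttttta
Wwtr1: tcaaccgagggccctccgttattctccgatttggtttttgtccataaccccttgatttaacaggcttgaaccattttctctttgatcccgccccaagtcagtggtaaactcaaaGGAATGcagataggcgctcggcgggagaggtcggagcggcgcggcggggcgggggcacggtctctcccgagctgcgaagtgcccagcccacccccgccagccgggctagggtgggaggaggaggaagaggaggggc
Vgll3: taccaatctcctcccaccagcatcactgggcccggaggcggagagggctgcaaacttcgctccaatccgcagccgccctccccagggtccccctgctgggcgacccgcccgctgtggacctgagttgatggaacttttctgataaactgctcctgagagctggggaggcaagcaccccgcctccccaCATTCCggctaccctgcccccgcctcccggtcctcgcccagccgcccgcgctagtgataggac
Vgll4: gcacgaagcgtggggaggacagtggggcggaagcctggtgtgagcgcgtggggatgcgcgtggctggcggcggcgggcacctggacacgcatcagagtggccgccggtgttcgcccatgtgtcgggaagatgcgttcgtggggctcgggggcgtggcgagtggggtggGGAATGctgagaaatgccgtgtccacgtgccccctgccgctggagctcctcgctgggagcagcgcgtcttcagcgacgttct
Vgll2: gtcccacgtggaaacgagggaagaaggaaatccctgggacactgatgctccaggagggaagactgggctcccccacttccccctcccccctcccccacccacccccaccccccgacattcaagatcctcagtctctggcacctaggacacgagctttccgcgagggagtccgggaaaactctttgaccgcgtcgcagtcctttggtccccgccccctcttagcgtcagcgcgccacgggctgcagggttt
The element began 141 bases before the start site of Yap1, 136 before that of Wwtr1, 63 before that of Vgll3 and 82 before that of Vgll4. Wwtr1 has a second, overlapping window with the same element. In Tead3, 1 window held it once, 182 bases before the start, and another held it at 123 and 114 bases, while its remaining window held none. Neither the Tead2 nor the Vgll2 window contained it.

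Among the 8 tested factors, Yap1 was higher and Tead2 was lower in cKO ventricles, both by modest amounts. The Yap1 difference no longer passed once any 1 library was left out. Vgll2 was read in every cKO library and in no control. For the other 6 factors the difference did not pass the test, at an adjusted p under 0.05. Thus 2 of 8 passed, beside 16.3% of all tested genes. By direction, 1 of 8 was higher, beside 8.25% of all genes, and 1 was lower, beside 8.03%. A change of over 1.5-fold that also passed was seen for 0 of the 8, compared with 6.72% of all genes (4.01% higher and 2.72% lower). At an unadjusted p under 0.05 there were 3 of 8, beside 29.7% of all genes, and DESeq2 passed 4 of the 9 genes, beside 18.9% of all genes. In CPM the groups did not overlap for 2 of the 8, beside 16.7% of all tested genes. The median log2 fold change of the 8 was 0.01, and that of all tested genes was also 0.01. The shares of so few genes were not tested against those of all genes.

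**Figure D1:**
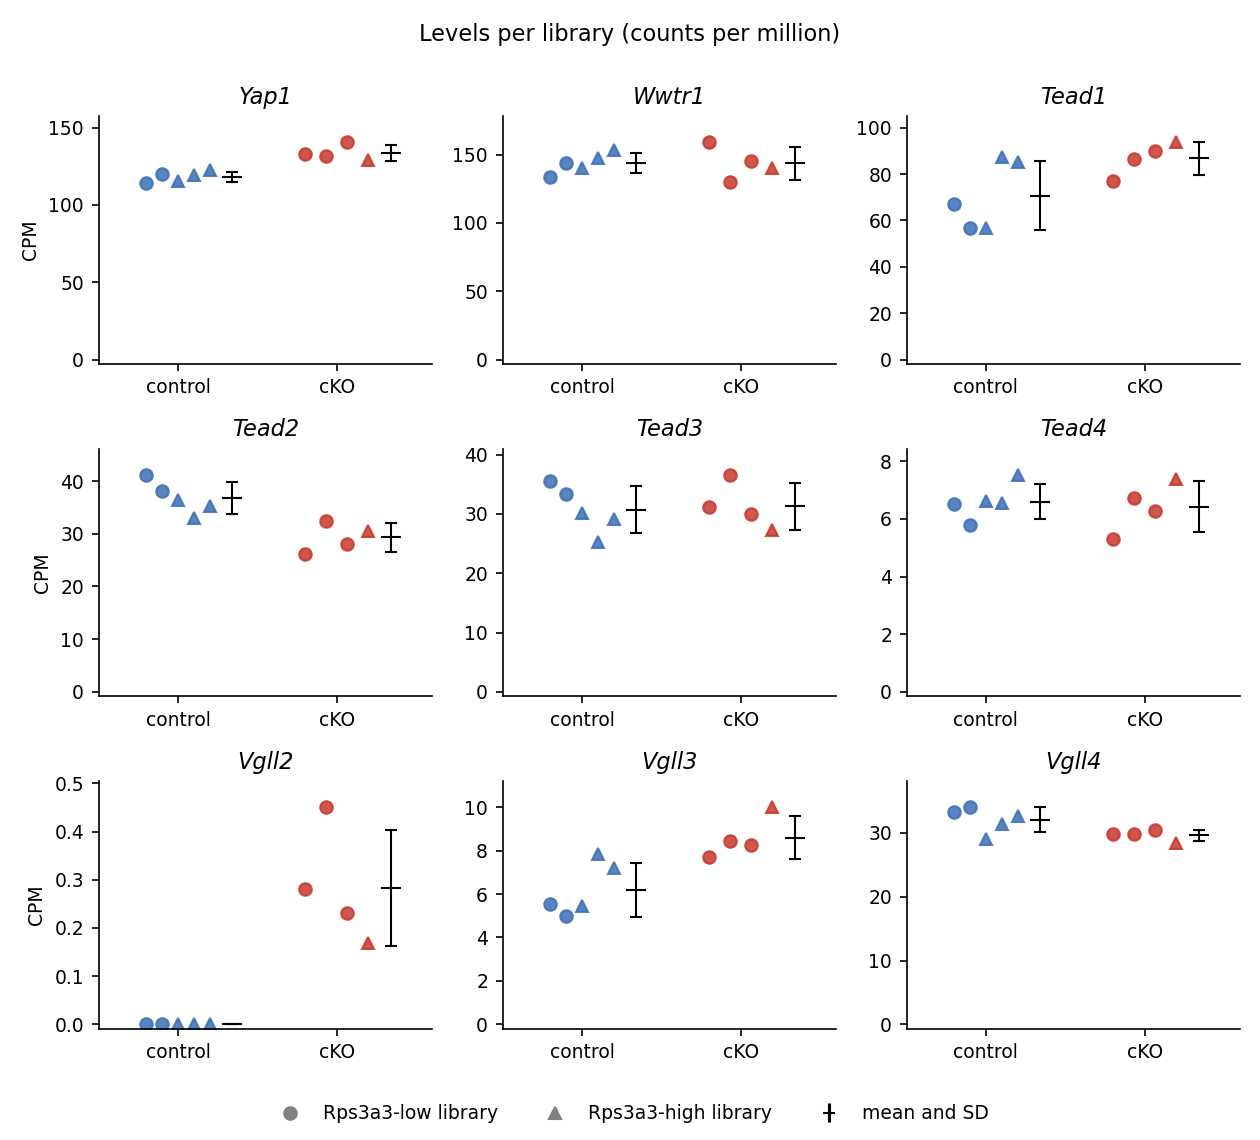
CPM in each library for the 9 factors, with controls in blue and cKO in red, circles for Rps3a3-low and triangles for Rps3a3-high libraries, and black bars for the mean and SD of each group (n = 5 and n = 4). The groups separate for Yap1, Tead2 and Vgll2 and overlap for the other 6.

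To set the genes beside each other, counts were divided by the summed exon length of each gene and scaled to the same total in each library (transcripts per 1e6, TPM). In controls Wwtr1 was the most abundant of the 9, at 87.2 ± 5.73 TPM (SD, n = 5). Yap1 followed at 37.0 ± 1.58 TPM, and then Tead2 at 22.3 ± 1.83, Vgll4 at 17.2 ± 1.14, Tead1 at 15.1 ± 3.42, Tead3 at 13.3 ± 1.66, Tead4 at 5.33 ± 0.616 and Vgll3 at 2.54 ± 0.542 TPM. Neighbours in this order overlapped between libraries only for Vgll4 with Tead1 and for Tead1 with Tead3. In cKO libraries Wwtr1 (91.2 ± 6.73 TPM, n = 4) and Yap1 (43.8 ± 0.974 TPM) kept their places, and Tead1 was next at 19.4 ± 1.87 TPM, above Tead2 at 18.6 ± 2.02 TPM. The libraries of Tead1 and Tead2 overlapped in cKO, at 16.9 to 21.5 and 16.4 to 20.7 TPM. The order depends on which transcripts are counted: by the longest transcript alone, Vgll4 followed Yap1 in controls at 33.7 TPM and Tead3 (20.6 TPM) stood above Tead1 (16.4 TPM). Wwtr1 and Yap1 led by either length.

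Yap1 encodes the coactivator YAP (ENSMUSG00000053110, chromosome 9, 7931999 to 8004596, minus strand). Control libraries 1 to 5 read 114.1, 119.8, 115.6, 119.5 and 122.3 CPM, and cKO libraries 1 to 4 read 133.1, 131.9, 140.5 and 128.8 CPM. Every cKO library was above every control, and the controls varied little, with a coefficient of variation of 2.82%. In edgeR this was a rise of 1.13-fold, or 0.18 on the log2 scale (SE 0.05, 95% interval 0.06 to 0.29, adjusted p = 0.0365). The call rests on the full set of libraries: without any 1 of the 9 the adjusted p was 0.0532 to 0.117, at log2 fold changes of 0.15 to 0.19. The study itself reported no difference between genotypes in Yap RNA by qPCR, nor in YAP protein by Western blot, at P7.

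Wwtr1 encodes TAZ, the paralog of YAP (ENSMUSG00000027803, chromosome 3, 57455649 to 57575910, minus strand). It stood at 133.7, 143.8, 140.5, 147.3 and 153.2 CPM in the controls and at 159.0, 130.0, 145.2 and 140.3 CPM in the cKO libraries. The groups overlapped throughout, and cKO libraries held both the highest and the lowest value. Its difference on the log2 scale was -0.001 (SE 0.07), with a 95% interval of -0.15 to 0.15 and an adjusted p of 0.995 (edgeR). Per length there was 2.35 times as much Wwtr1 as Yap1 in controls and 2.08 times as much in cKO libraries (geometric means). On the log2 scale this ratio was 1.18 to 1.28 in controls and 0.93 to 1.21 in cKO, where replicate 1 alone reached into the control range. By longest transcript the ratios were 1.36 and 1.21, so their size depends on the length used.

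Of the TEAD genes, Tead2 fell (ENSMUSG00000030796, chromosome 7, 45215753 to 45233644, plus strand). TEAD2 is known as the family member of early embryos and neural progenitors. Its level was 41.2, 38.1, 36.5, 32.9 and 35.3 CPM in the controls and 26.2, 32.5, 28.1 and 30.5 CPM in the cKO libraries. In CPM all cKO libraries were below all controls, although control 4 and cKO 2 were close. In TPM the groups overlapped, at 19.9 to 25.0 in controls and 16.4 to 20.7 in cKO libraries. In edgeR the cKO level was 0.796 times the control, or -0.33 on the log2 scale (SE 0.08, 95% interval -0.51 to -0.14, adjusted p = 0.0195). Without cKO replicate 3 the adjusted p was 0.0637, and it passed without each of the other 8 libraries. In the Rps3a3-low libraries alone the difference was -0.45 on the log2 scale and did not pass (adjusted p = 0.0741). The gene overlaps Cd37 on the opposite strand, but no stretch of 75 bases (the read length) was shared by their transcripts, and Cd37 had 53 to 129 counts per library.

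Tead1 encodes the TEAD protein best known from cardiac muscle (ENSMUSG00000055320, chromosome 7, 112679318 to 112906807, plus strand). Its controls did not cluster, at 66.9, 56.9, 56.9, 87.2 and 85.3 CPM, whereas the cKO libraries stood at 76.8, 86.6, 89.9 and 93.7 CPM. Controls 1 to 3 were below every cKO library, and controls 4 and 5 were among them. The coefficient of variation was 21.01% in controls and 8.33% in cKO. The log2 fold change was 0.30 (SE 0.14) and did not pass the test (adjusted p = 0.17, edgeR), with a 95% interval of -0.00 to 0.59.

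Tead3 and Tead4, the other TEAD genes, gave no difference that passed. Tead3 (ENSMUSG00000002249, chromosome 17) read 35.5, 33.4, 30.2, 25.3 and 29.1 CPM in controls and 31.1, 36.6, 30.1 and 27.3 CPM in cKO libraries. Tead4 (ENSMUSG00000030353, chromosome 6) was low, at 6.53, 5.79, 6.62, 6.54 and 7.53 CPM in controls and 5.29, 6.73, 6.29 and 7.38 CPM in cKO libraries. Both overlapped widely between genotypes. The 95% intervals of the log2 fold change were -0.21 to 0.26 for Tead3 and -0.31 to 0.24 for Tead4.

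Because the TEAD proteins bind the same element, their share of the summed TEAD transcripts was described per length, with no test. Tead2 made up 41.7%, 42.5%, 42.0%, 36.4% and 36.7% of the TEAD sum in the controls and 31.7%, 33.1%, 31.3% and 32.9% in the cKO libraries, without overlap. Tead1 made up 23.9%, 22.4%, 23.1%, 34.03% and 31.3% in the controls and 32.8%, 31.15%, 35.4% and 35.6% in the cKO libraries, where controls 4 and 5 were within the cKO range. Tead2 was thus the leading TEAD transcript in every control. In cKO libraries Tead1 exceeded Tead2 in replicates 1, 3 and 4. The leading gene in cKO depends on the length: by the longest transcript the mean shares were 31.9% for Tead3, 30.6% for Tead1 and 30.2% for Tead2, and in controls Tead2 led by either length, at 37.4% by the longest transcript. The log2 ratio of Tead1 to Tead2 was -0.92 to -0.10 in controls and -0.09 to 0.18 in cKO, so control 4 and cKO 2 nearly met. Tead3 and Tead4 held similar shares in both groups, with means of 23.7% and 24.6% for Tead3 and 9.51% and 9.40% for Tead4. The TEAD sum itself was 56.0 ± 3.90 TPM in controls (SD, n = 5) and 57.6 ± 4.90 TPM in cKO libraries (n = 4), a difference smaller than the spread within either group. TPM lacks the library scaling of CPM, so the direction of small differences between genotypes depends on the scale. Wwtr1, for example, averaged 87.2 TPM in controls and 91.2 TPM in cKO libraries, but 143.7 and 143.6 CPM.

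**Figure D2:**
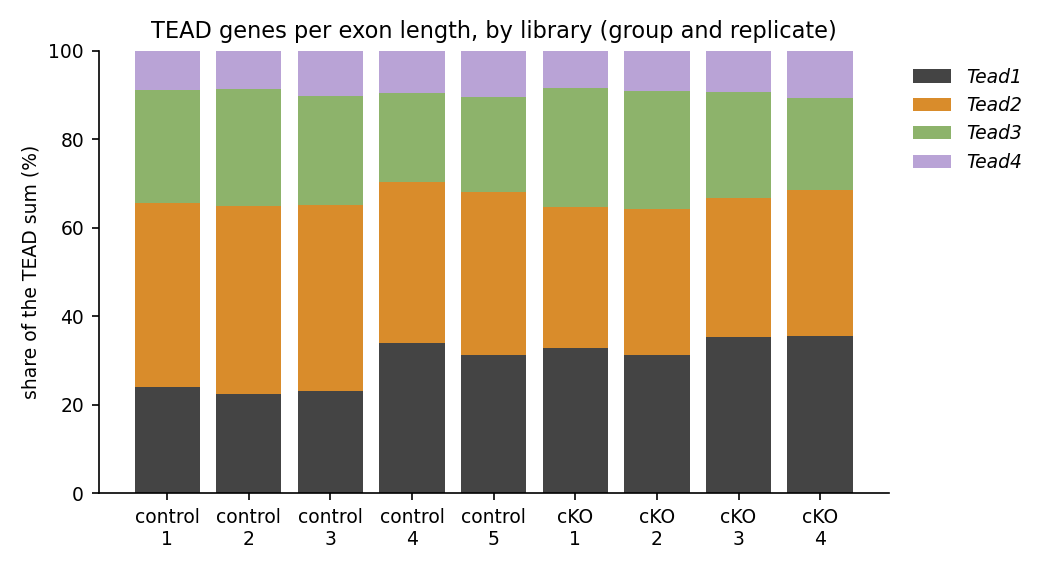
Share of Tead1, Tead2, Tead3 and Tead4 in the TEAD sum (percent, counts per exon length) as stacked bars, 1 bar per library. Tead2 (orange) fills 36.4% to 42.5% of the bar in controls and 31.3% to 33.1% in cKO libraries, and Tead1 (dark) fills 22.4% to 34.03% and 31.15% to 35.6%.

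The Vestigial-like genes differed in level and in pattern. Vgll4, the competitor of YAP on TEAD (ENSMUSG00000030315, chromosome 6), stood at 33.3, 34.03, 29.0, 31.4 and 32.7 CPM in controls and 29.9, 29.8, 30.5 and 28.5 CPM in cKO libraries. Control 3 lay among the cKO libraries and the other controls were above all of them. The log2 fold change of -0.11 (SE 0.07, 95% interval -0.26 to 0.03) did not pass (adjusted p = 0.274, edgeR). Relative to the sum of Yap1 and Wwtr1 per length, Vgll4 had a geometric mean of 0.139 in controls and 0.124 in cKO libraries, and the log2 ratios overlapped at -2.96 to -2.71 and -3.11 to -2.91.

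Vgll3 (ENSMUSG00000091243, chromosome 16, 65815257 to 65866368, plus strand) gave the largest fold change of the 8 tested factors. It read 5.54, 4.98, 5.46, 7.86 and 7.18 CPM in controls and 7.68, 8.43, 8.26 and 9.999 CPM in cKO libraries. Only control 4 reached into the cKO range, where it lay above cKO 1. In TPM the groups came close without overlap, at 1.98 to 3.20 in controls and 3.24 to 4.38 in cKO libraries. The log2 fold change was 0.47 (SE 0.15, 95% interval 0.14 to 0.80), and its adjusted p of 0.0526 (edgeR) fell just short of the threshold. Without control replicate 4 it passed (adjusted p = 0.0238), and without each of the other 8 libraries it did not (adjusted p = 0.0524 to 0.148). By DESeq2 it passed with all libraries (adjusted p = 0.0203).

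**Figure D3:**
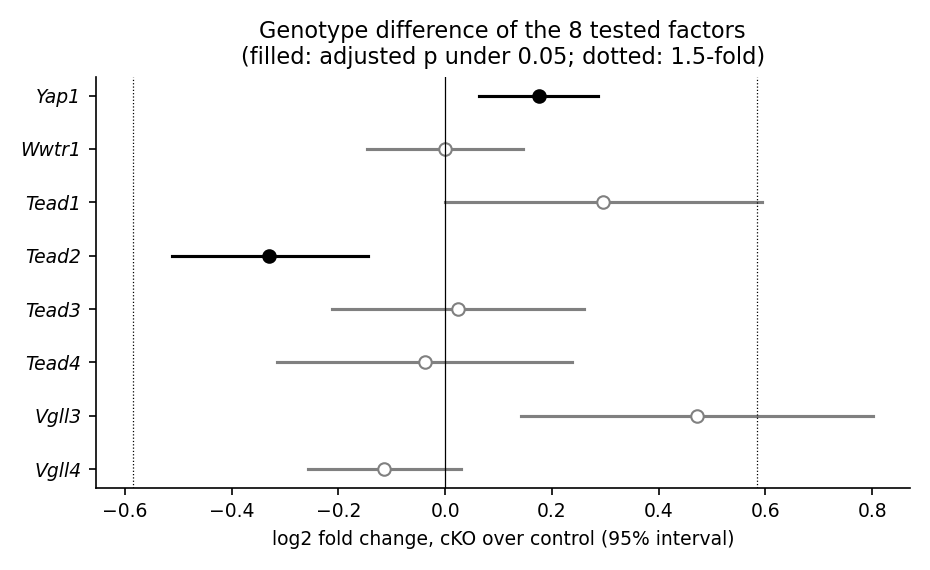
Log2 fold change of cKO over control with its 95% interval for the 8 tested factors, with filled points where the adjusted p was under 0.05 and dotted lines at 1.5-fold. Yap1 (0.18) and Tead2 (-0.33) passed, the intervals of Wwtr1, Tead1, Tead3, Tead4 and Vgll4 span 0, and that of Vgll3 (0.47) lies above 0 although its adjusted p did not pass.

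Vgll2 (ENSMUSG00000049641, chromosome 10, 52022502 to 52028471, plus strand) had 0 counts in all 5 controls and 9, 17, 8 and 7 counts in cKO replicates 1 to 4. The cKO levels were 0.28, 0.451, 0.232 and 0.17 CPM, below those of every other member. Against a floor of 3 counts over the control group (0.018 CPM), the pooled cKO level of 0.281 CPM was 15.6-fold higher. The floor bounds the control side only, as counting error in the cKO libraries was left out. With no filter on low counts the adjusted p was 0.000975 in edgeR, and it was 2.1e-05 in DESeq2. Among the 23971 genes with a count, 24 genes (0.100%) had 0 counts in every control and at least 1 in every cKO library, and the reverse held for 1 gene. Within the 24, chosen after their values were seen, only the potassium channel interacting protein gene Kcnip4 had more cKO counts (53) than Vgll2 (41).

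The counts of Vgll2 did not extend over its surroundings. Of the 8 annotated genes within 300000 bases of it, 7 had 0 counts in all libraries, and only Dcbld1 was read. As VGLL2 is known from skeletal muscle, markers of that tissue were examined beside it. Pax7 and Myod1, which mark skeletal muscle precursors, had 0 counts in all 9 libraries. Myog, a factor of skeletal muscle differentiation, had 0, 1, 0, 0 and 0 counts in controls and 5, 5, 3 and 3 counts in cKO libraries, and with no filter its adjusted p was 0.0274 (edgeR). Myf5, of skeletal muscle precursors, had 3, 0, 3, 0 and 0 counts in controls and 0, 1, 0 and 0 in cKO libraries. Mybpc1, of slow skeletal muscle, averaged 0.195 CPM in controls and 0.215 CPM in cKO libraries. The summed level of the 5 skeletal muscle markers was 0.0629 to 0.388 CPM in controls and 0.242 to 0.493 CPM in cKO libraries, and the groups overlapped. Whether other tissue had a part in the Vgll2 counts beyond these values was not tested.

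The genotype difference was also read within the Rps3a3-low and Rps3a3-high libraries, since the sets hold unequal numbers of each genotype. Of the 8 tested factors, 5 did not overlap between genotypes within either set, beside 29.3% of all tested genes. They were Yap1 and Tead2 and, in addition, Tead1, Vgll3 and Vgll4, which overlapped over all libraries. The high set holds only 1 cKO library, so the absence of overlap says little there. Tead1 was at 56.9 to 66.9 CPM in Rps3a3-low controls and 76.8 to 89.9 CPM in Rps3a3-low cKO libraries, and at 56.9 to 87.2 CPM in Rps3a3-high controls and 93.7 CPM in the single Rps3a3-high cKO library. Vgll3 was at 4.98 to 5.54 and 7.68 to 8.43 CPM in the low set, and at 5.46 to 7.86 and 9.999 CPM in the high set. Vgll4 was lower in cKO, at 33.3 to 34.03 and 29.8 to 30.45 CPM in the low set, and at 29.0 to 32.7 and 28.45 CPM in the high set. With the set as a term in the edgeR model, Vgll3 had a log2 fold change of 0.60 (adjusted p = 0.00629) and Tead1 one of 0.39 (adjusted p = 0.0577). Yap1 (0.17, adjusted p = 0.0336) and Tead2 (-0.35, adjusted p = 0.0114) passed as before. The within-set log2 ratios had the same sign in the low and the high set for Yap1 (0.21 and 0.11), Tead1 (0.45 and 0.29), Tead2 (-0.46 and -0.20), Vgll3 (0.63 and 0.55) and Vgll4 (-0.17 and -0.12). For Tead3 they were -0.08 and -0.05, of the opposite sign to the value over all libraries (0.03). For Wwtr1 they were 0.06 and -0.07, and for Tead4 they were -0.01 and 0.10.

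The genes that act around these factors were described from lists of known components. Of the 21 genes of the Hippo kinase cascade and its upstream regulators, all tested, 2 were higher, 0 were lower and 19 did not pass, with a median log2 fold change of 0.01 beside 0.01 over all genes. Of all tested genes, 8.25% were higher and 8.03% lower. The core kinases Stk3, Stk4, Lats1 and Lats2 were among those that did not pass. With the library set as a term in edgeR, 5 of the 21 passed, beside 19.9% of all tested genes. Stk4 (0.26 on the log2 scale, adjusted p = 0.0161), Mob1b (0.30), Limd1 and Wwc2 were higher, and Wtip was lower (-0.41, adjusted p = 0.0115). The 2 that rose, named after their values were seen, were Limd1, a LIM protein that holds back LATS kinases, and Wwc2, a KIBRA relative that activates them. Limd1 went from 123.2 ± 2.17 to 160.3 ± 4.14 CPM (SD, n = 5 and n = 4), and edgeR gave a log2 difference of 0.38 (SE 0.05, adjusted p = 0.000244). For Wwc2 the means were 90.6 ± 6.83 and 111.6 ± 5.21 CPM, with a log2 difference of 0.30 (SE 0.07, adjusted p = 0.00914).

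Among 27 genes for proteins that bind YAP, TAZ or TEAD, 0 were higher, 4 were lower and 23 did not pass, with a median of -0.06. Over all tested genes 16.3% passed, 8.25% with a higher and 8.03% with a lower level in cKO. The share of partners that passed in either direction was thus near that of all genes, but all 4 were lower. Their summed level over the 27 was 2763 to 2860 CPM in controls and 2645 to 2706 CPM in cKO libraries, without overlap. The split by direction was not tested. The 4 were likewise named after their values were seen. Tbx5, a cardiac transcription factor known to partner with YAP and TAZ, showed the largest fall of the 4, from 24.6 ± 1.11 to 16.5 ± 2.47 CPM (-0.57 on the log2 scale, SE 0.10, adjusted p = 0.00233, edgeR). Tcf7l2, a Wnt pathway factor, had a log2 fold change of -0.37. Ncoa1, a nuclear receptor coactivator, had one of -0.28, and Ywhae, a 14-3-3 protein of the family that retains phosphorylated YAP, had one of -0.21. None of these changed by over 1.5-fold with genotype as the only term. With the library set as a term, Tbx5 alone of the 4 did (-0.64 on the log2 scale, adjusted p = 0.000613, edgeR). Amotl2 and Ptpn14 stand both in this list and among the conserved targets, as Lats2 does among the Hippo kinases and the targets.

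Of 22 conserved target genes of YAP, 21 were tested, and 7 were higher, 3 were lower and 11 did not pass. Their median was 0.13, and 4 were higher and 1 was lower by over 1.5-fold. Of all tested genes, 16.3% passed, and 4.01% were higher and 2.72% were lower by over 1.5-fold. Nt5e, an ecto-nucleotidase, had the largest rise, from 18.1 ± 2.01 to 50.8 ± 2.74 CPM (1.49 on the log2 scale, SE 0.09, adjusted p = 7.5e-07, edgeR). The level of Ankrd1, a stress-responsive protein of the cardiac sarcomere and nucleus, went from 960.0 ± 108.2 to 2067 ± 246.7 CPM (1.11, SE 0.10). Ccn1, a matrix-associated signalling protein, went from 35.2 ± 7.79 to 61.7 ± 9.04 CPM (0.81, SE 0.15). Gadd45a, a DNA damage response gene, fell from 8.01 ± 0.574 to 4.999 ± 0.519 CPM (-0.68, SE 0.11). These target lists were compiled with earlier results of these data known and give no independent evidence of a direction.

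**Figure D4:**
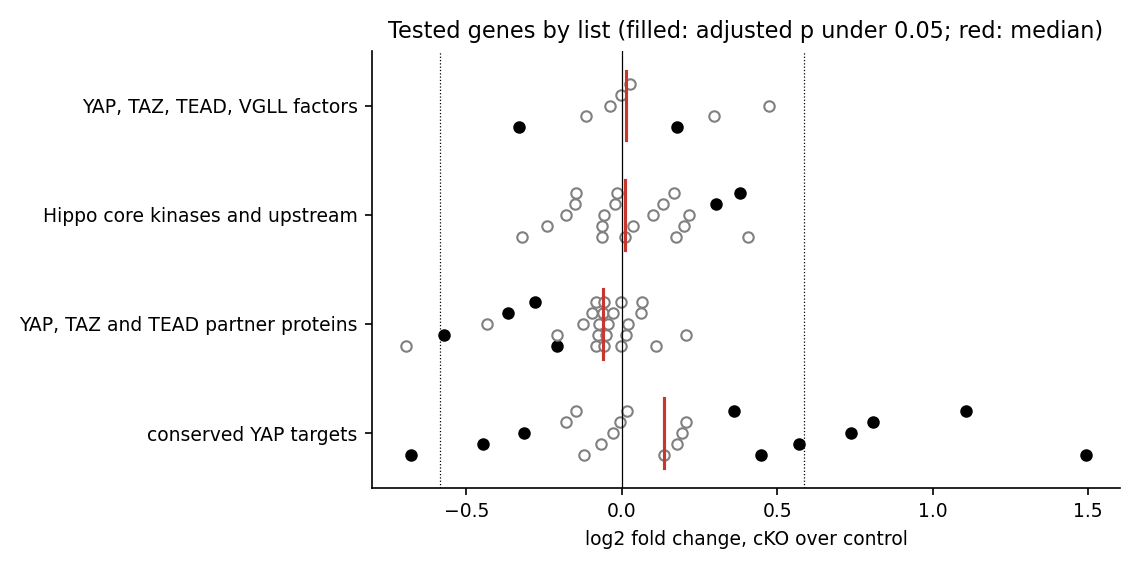
Log2 fold change of cKO over control for each tested gene of 4 lists, 1 point per gene, filled where the adjusted p was under 0.05, with a red line at the list median and dotted lines at 1.5-fold. The medians are 0.01 for the 8 factors, 0.01 for the Hippo kinases, -0.06 for the partners and 0.13 for the conserved targets, where 4 filled points lie beyond the upper dotted line.

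Markers of the cell types in ventricles moved with genotype beside these values. The 8 fibroblast markers summed to 6923 to 8213 CPM in controls and 8559 to 9507 CPM in cKO libraries, without overlap, and 4 of them rose (Col1a1 by 0.52, Tcf21 by 0.48, Col1a2 by 0.40 and Postn by 0.33 on the log2 scale). Of all tested genes, 8.25% were higher and 8.03% were lower. The 7 cardiomyocyte markers summed to 50390 to 58110 CPM in controls and 44830 to 48700 CPM in cKO libraries, also without overlap, and 1 of them fell (Myl2, by 0.43 on the log2 scale). In DESeq2 and with the library set as a term in edgeR, Tnni3 and Tnnt2 passed as well, so that 3 of the 7 were lower, where 18.9% and 19.9% of all genes passed in either direction (with the set term -0.41 and -0.29 on the log2 scale, adjusted p = 0.00225 and 0.00701). One of 4 epicardial markers fell (Wt1, by 0.40) and 1 of 3 atrial markers rose (Myl7, by 1.197). Only 2 of the 3 atrial markers had a higher level in cKO, with a median of 0.165, and the remaining marker was lower without passing. No endothelial, mural, macrophage, erythroid, lymphocyte or Schwann cell marker passed in edgeR with genotype as the only term, while DESeq2 passed the macrophage marker Lyz2 (0.71, adjusted p = 0.00619) and the erythroid marker Alas2 (0.32, adjusted p = 0.0488). With the set as a term in edgeR, Lyz2 (0.47, adjusted p = 0.0215) and the mural marker Myh11 (-0.42, adjusted p = 0.00746) passed. The other mural markers did not pass there: Pdgfrb (0.11), Rgs5 (0.10) and Cspg4 (0.17) were higher and Kcnj8 (-0.14) was lower. Of the other macrophage markers, which did not pass either, Cd163 was lower (-0.19) and the rest were higher. The summed levels of these lists, and of the epicardial and atrial lists, overlapped between groups. The part of these shifts in the levels of Yap1, Tead2 and Vgll3 was not tested.

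Finally, the genes whose pattern over the 9 libraries was most like that of the factors with the lowest adjusted p were identified by the root mean square difference of centred log2 CPM. For Tead2 these were Inppl1, a phosphoinositide phosphatase (0.0541), the CREB coactivator Crtc1 (0.0592) and Fgd1, an exchange factor for CDC42 (0.06), where the median gene differed by 0.265. For Yap1 they were Arhgap10 (0.0449), the zinc finger gene Zfp217 (0.0451) and Rragc, of the amino acid sensing Rag GTPases (0.046), where the median gene differed by 0.205. None of these passed in edgeR (adjusted p = 0.0955, 0.1375 and 0.1356). Of those for Tead2, Inppl1 and Fgd1 passed and Crtc1 did not (adjusted p = 0.0978, edgeR). The measure was not scaled to the spread of each gene, so genes that vary little lie near one another.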

How the data were processed

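Total RNA from mouse ventricles was made into stranded mRNA libraries and sequenced as single-end reads by the authors. The submitters' processing notes name STAR 2.4.2a, HTSeq 0.6.1 and mm10. Neither the gene annotation nor how HTSeq treated strand is given in the sources used here, so antisense reads may be included. The authors deposited raw counts per gene in 1 table for the 9 libraries, with 0 columns of other samples. The libraries held 31011055 to 40073801 counts.

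Each column was matched to its library by name, and groups were taken from the labels. Symbols, coordinates and lengths came from GENCODE M21, in which 36429 of 38293 identifiers (99.82% of counts) were found. Genotypes were compared with edgeR 4.0.16 in R 4.3.3 (quasi-likelihood test, two-sided, TMM scaling, filterByExpr at a minimum count of 10, robust fit, genotype alone), with Benjamini-Hochberg adjustment over 15318 genes. The study's methods used DESeq2 with a fold of 1.5 and an adjusted p of 0.05, which were kept as thresholds, and DESeq2 1.42.0 was an alternative. The procedure was tested on simulated data. TPM used the union of exons, and the log2 CPM of the pattern search used a prior count of 0.5. The floor used for Vgll2 covers counting error in the controls only, and not that of the cKO counts.

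The rule for named genes was all members, the called genes of each list up to 3 in each direction, Arid1a, and the 3 genes nearest in pattern to 2 members. The other genes of the lists that passed, and the markers, were named after their values were seen. Members and lists were chosen with earlier results of these data known. The study's methods and a legend count the controls differently, and the 5 that the labels give were kept. The methods describe extraction from animals, but the labels do not tie a library to an animal, so p-values measure the spread between these samples. No 2 libraries of the same group were alike within sampling noise. Alternatives were other scalings and filters, DESeq2, the replicate number, the library set or the Xist level as a term, the Rps3a3-low libraries alone, leaving out each library, other fold thresholds and the longest transcript as length.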

Additional observations from a re-analysis of the deposited data

Results flagged for a closer look

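Of 36 groups of libraries examined for a value far from the others, 1 stood out, and about 1 in 20 groups is marked in this way by chance. The log2 ratio of the TEAD sum to the sum of Yap1 and Wwtr1 per length was -0.97 in control replicate 1, while the other 4 controls lay between -1.21 and -1.17. The cKO libraries ranged from -1.47 to -1.02.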

How the results depend on the processing

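The difference in Vgll4 kept its direction and its side of the threshold in all 18 alternatives. Tead2 kept both in 15 of 18, Tead1 in 17, Vgll3 in 12 and Yap1 in 5. Taken by the longest transcript, the shifts of the TEAD shares and of the ratios differed from those by the exon union by less than 1 SD of the replicates. The cause of the changes below was not tested.

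Yap1 kept its direction but not its call with the Xist level as a covariate (0.17 on the log2 scale), with no filter on low counts (0.17) and in the Rps3a3-low libraries alone (0.21), where Tead2 (-0.45) also lost its call and fewer libraries entered. Vgll3 passed in DESeq2 (0.47), at a filter of a mean of 1 CPM (0.48), with the set as a term (0.60) and with upper-quartile scaling (0.48). The sign of differences near 0 was not stable. Wwtr1 became 0.001 with Xist, 0.007 with the 1 CPM filter, 0.011 with the set term, 0.012 with upper-quartile scaling and 0.061 in the low set. Tead3 became -0.068 with the set term and -0.079 in the low set, and Tead4 became 0.031 with the set term.

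The replicate numbers did not pair the libraries: the correlations of same-numbered libraries were 0.0227, 0.0361, 0.0107 and 0.232, and 0 of 4 matched its own number best. With the replicate number as a block, Yap1 (0.19, adjusted p = 0.104) and Tead2 (-0.34, adjusted p = 0.0617) did not pass, Tead1 (0.39, adjusted p = 0.0498) and Vgll3 (0.54, adjusted p = 0.03) passed, and Wwtr1 was at 0.02 and Tead4 at 0.005 (edgeR). Of the markers, Tnni3, Tnnt2, Lyz2 and C1qa passed in addition with the block. Of the partner genes, Ncoa1 (adjusted p = 0.0524) and Ywhae (adjusted p = 0.0907) did not pass with it, and Irf2bp2 did (-0.50, adjusted p = 0.00931, edgeR). Over all genes the block called 888 in place of 1030, and 11.3% passed in place of 16.3%.

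Members that passed were 4 in DESeq2, 1 with Xist and 0 in the low set. Members called were 1 in DESeq2, with the set term, with no filter and at a fold of 1.2, and 2 with no fold threshold. Over all genes, 1205 of 16741 were called in DESeq2, 1166 of 15318 with the set term and 1068 of 23971 with no filter. With no fold threshold, 16.3% of all tested genes passed. Hippo genes that passed were 5 with the set term and 1 in the low set, partner genes 7 in DESeq2 and 1 in the low set, and conserved targets 4 in the low set, where 620 genes were called over the table. Over all genes 19.9% passed with the set term, 18.9% in DESeq2 and 5.44% in the low set.

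Leaving out each library in turn gave log2 fold changes of 0.15 to 0.19 for Yap1, -0.053 to 0.044 for Wwtr1, 0.23 to 0.38 for Tead1, -0.38 to -0.28 for Tead2, -0.06 to 0.086 for Tead3, -0.113 to 0.043 for Tead4, 0.39 to 0.57 for Vgll3 and -0.15 to -0.09 for Vgll4. Members that passed were 0 to 2 and members called were 0 each time. Genes that passed were 2 to 3 for Hippo, 2 to 5 for partners and 8 to 11 for targets, and 909 to 1171 genes were called. In these fits 12.3% to 16.9% of all tested genes passed. The shift of the TEAD share was 5.67 to 8.58 points for Tead1, -8.45 to -6.94 for Tead2, -0.0416 to 2.12 for Tead3 and -0.512 to 0.174 for Tead4. The log2 ratio shifted by -0.23 to -0.14 for Wwtr1 to Yap1, -0.20 to -0.13 for Vgll4, -0.15 to -0.00 for the TEAD sum and 0.56 to 0.77 for Tead1 to Tead2. The fold of Vgll2 over the control floor was 12.2 to 18.1. Depth limits Vgll2, since a gene with 0 counts in controls could still be present below 0.018 CPM.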
